A study of Brassica napus with 9 samples.

Results

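In guard cell protoplasts of Brassica napus, 9 genes stood below the mock-treated level after 15 min of abscisic acid (ABA) and above it after 60 min, in each of 3 replicates. They were the only genes of 31307 with enough counts that did so within the limits described here, out of 101040 genes in the count table. By construction of the set, the levels turned upward between the time points. edgeR called all 9 genes higher at 60 min relative to 15 min (14.2% of all genes tested). It called 8 of them higher at 60 min relative to mock (15.2% of all genes tested) and 0 of them lower at 15 min relative to mock (0.0359%). BnaA06g21560D was on average 40.2% below mock at 15 min and 2.03-fold above mock at 60 min, and its depth at 15 min rested on replicate 2: without it the mean log2 change was -0.43 in place of -0.74, and BnaC07g23080D was lower, at -0.48. The other members were 10.7% to 23.9% below mock at 15 min and 1.15-fold to 1.81-fold above it at 60 min. The lowest of those folds, that of BnaC08g36730D, turned into a decrease when libraries were scaled by total count alone. With that scaling the mean log2 changes of BnaA03g47200D and BnaC01g23230D at 60 min were 0.04 and 0.08, each with replicate 1 below mock. Only 3 of the 9 genes then still met the limits.

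RNA was sequenced from leaf guard cells of the line DH12075, freed of their walls as protoplasts, in 9 samples of 3 groups. The mock group (Control) received ethanol, the solvent of ABA, and the other groups received 10 µM ABA and were kept in light at room temperature for 15 or 60 min. Replicates 1, 2 and 3 each hold 1 sample of every group, and per the study's methods each sample pools 3 to 5 protoplast preparations, so the 3 replicates are 3 independent pools. The samples hold no separate mock for each exposure time, so ABA and the time spent in light cannot be told apart.

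Guard cells border the stomatal pore and close it when the plant runs short of water. ABA is the hormone that signals this shortage: it binds receptors of the PYR/PYL family, which then hold back PP2C phosphatases, and kinases such as OST1 are released to act on ion channels and on transcription factors. The transcript level of a gene reflects both how fast its RNA is made and how fast it is broken down, and counts of reads do not separate these. In pooled cells, fewer cells that express a gene and less RNA per cell cannot be told apart either.

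The members were chosen by their measured values. For each gene, r15 and r60 are the log2 CPM (the gene's count relative to its library, after TMM scaling of the libraries and with a prior count of 2) at 15 and at 60 min minus the value of the mock sample with the same replicate number. A member had a mean of at least 200 counts over the 9 samples, at least 30 counts in each mock sample, r15 at or below -0.15 in all 3 replicates and r60 from 0.15 to 1.5 in all 3. Among the 31307 genes that met the count minimums, 382 (1.22%) met the limit on r15 and 5089 (16.3%) met those on r60, and 9 (0.0287%) met both. These values chose the genes, so r15, r60 and the difference between them are given as a description.

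The identifiers place 3 members on the A subgenome, which B. napus inherited from B. rapa, and 6 on the C subgenome, which it inherited from B. oleracea. Of the genes that met the count minimums, 48.5% were on A and 51.3% on C. The chromosomes named in the identifiers are A03, A05, A06, C03 and C08 for 1 member each and C01 and C07 for 2 members each. No gene name, product or coordinate was paired with any of the 9 identifiers in the sources used here, so they are described by identifier only, and no sequence is shown.

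BnaA06g21560D had the largest mean difference between 15 and 60 min. Its level was 34.3, 46.6 and 29.98 CPM in mock replicates 1, 2 and 3, 21.1, 17.9 and 27.0 CPM at 15 min, and 76.2, 67.1 and 78.3 CPM at 60 min. All 3 samples at 15 min lay below all 3 mock samples, and all 3 at 60 min lay above every other sample. Its r15 was -0.70, -1.38 and -0.15, so replicate 2 fell furthest below its mock and replicate 3, with the shallowest dip of the 9 members in that replicate, only just met the limit. The mean r15 was -0.74 ± 0.61 (SD, n = 3) and the mean r60 was 1.02 ± 0.44 (SD, n = 3). The spread between replicates was smaller from 15 to 60 min, where the difference was 1.76 ± 0.20 (SD, n = 3), a 3.40-fold increase.

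Another 5 members differed between 15 and 60 min by a mean of 0.88 to 1.14 on the log2 scale. BnaC01g28700D was measured at 6.10, 2.86 and 24.3 CPM in mock, at 4.10, 2.45 and 21.2 CPM at 15 min, and at 9.57, 5.12 and 46.8 CPM at 60 min. Replicate 3 was far above the other replicates in every group, and the groups overlapped. Within replicates the gene moved alike all the same: its r60 was 0.65, 0.84 and 0.94, and its increase from 15 to 60 min was 1.14 ± 0.08 (SD, n = 3).

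BnaC07g45320D had 7.22, 7.29 and 9.94 CPM in mock, 6.39, 6.27 and 7.49 CPM at 15 min, and 14.6, 8.56 and 24.9 CPM at 60 min. Here the replicates differed most at 60 min, where replicate 3 was highest and replicate 2 was below the highest mock sample. The mean r60 was 0.85 ± 0.56 (SD, n = 3) and the mean r15 was -0.27 ± 0.12 (SD, n = 3).

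BnaA05g24020D was at 2.09, 3.02 and 2.60 CPM in mock, 1.71, 2.50 and 2.16 CPM at 15 min, and 3.08, 4.23 and 6.72 CPM at 60 min. The 60-min samples lay above all others, while the 15-min samples overlapped with mock. Its dip was nearly the same in every replicate, with r15 of -0.28, -0.27 and -0.26, whereas r60 was 0.56 and 0.48 in replicates 1 and 2 and 1.36 in replicate 3.

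For BnaC07g23080D the levels were 6.78, 2.66 and 4.83 CPM in mock, 4.33, 2.25 and 3.93 CPM at 15 min, and 8.70, 4.06 and 7.81 CPM at 60 min. Replicate 2 was lowest in each group and the groups overlapped. Replicate 1 had the strongest dip, with r15 of -0.64 against -0.24 and -0.30, and the weakest rise above mock, with r60 of 0.36 against 0.61 and 0.69.

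BnaC03g03760D showed 2.91, 1.11 and 2.13 CPM in mock, 2.40, 0.976 and 1.83 CPM at 15 min, and 5.27, 1.82 and 2.81 CPM at 60 min. Again replicate 2 was lowest throughout and the groups overlapped. The mean r15 was -0.23 ± 0.04 (SD, n = 3) and the mean r60 was 0.65 ± 0.23 (SD, n = 3).

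The remaining 3 members changed least. BnaA03g47200D had 1.82, 1.87 and 1.66 CPM in mock, 1.53, 1.53 and 1.48 CPM at 15 min, and 2.07, 2.29 and 2.42 CPM at 60 min. The 3 groups did not overlap, but this was also the member with the lowest mean count, at 166 to 275 reads per sample. Its mean r15 was -0.23 ± 0.07 (SD, n = 3) and its mean r60 was 0.34 ± 0.18 (SD, n = 3). With scaling by total count alone its mean r60 was 0.04, with replicate 1 at -0.12.

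BnaC01g23230D was measured at 11.1, 10.6 and 9.21 CPM in mock, 9.99, 9.48 and 8.18 CPM at 15 min, and 12.8, 13.1 and 13.98 CPM at 60 min. The 60-min samples were above all others, and the 15-min samples overlapped with mock. Its dip was the shallowest of the 9 and the most even, with a mean r15 of -0.16 ± 0.01 (SD, n = 3). The mean r60 was 0.37 ± 0.21 (SD, n = 3) with TMM scaling. It was 0.08 with scaling by total count alone, with replicate 1 at -0.10.

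BnaC08g36730D was at 66.8, 117 and 81.7 CPM in mock, 58.8, 105 and 65.7 CPM at 15 min, and 79.7, 132 and 91.6 CPM at 60 min. Replicate 2 was highest in each group, and the 3 groups overlapped. The mean r15 was -0.22 ± 0.08 (SD, n = 3). The mean r60 was 0.20 ± 0.05 (SD, n = 3) with TMM scaling and -0.10 with scaling by total count alone, so its direction at 60 min depended on the scaling.

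**Figure D1:**
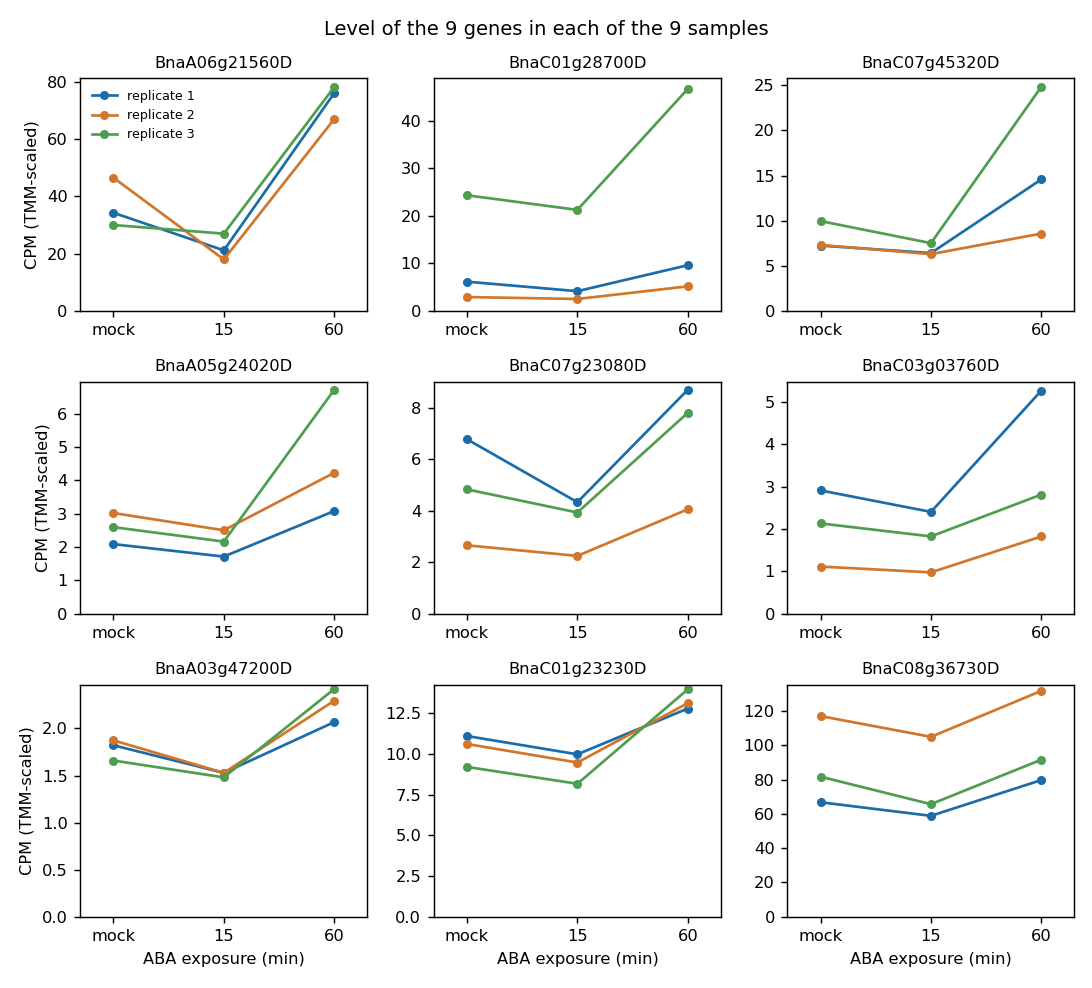
TMM-scaled CPM of each of the 9 genes (vertical axes, linear, from 0) in mock samples and after 15 and 60 min of ABA (horizontal axis), with a line for each replicate. Every line goes down and then up, and in BnaC01g28700D replicate 3 runs from 24.3 to 21.2 and 46.8 CPM, far above the other replicates; the rise of BnaC08g36730D above mock is lost with scaling by total count alone.

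Regardless of replicate number, all 15-min samples were below all mock samples in 2 members, BnaA06g21560D and BnaA03g47200D, as in 0.473% of the genes that met the count minimums. All 60-min samples were above all mock samples in 4 members (10.6% of those genes), namely BnaA06g21560D, BnaA05g24020D, BnaA03g47200D and BnaC01g23230D. With BnaC07g45320D added, 5 members had all 60-min samples above all 15-min samples (9.6% of those genes). The rule used these differences, so nothing is read from those counts.

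The next comparison asks which of the changes a model of all 9 samples calls. edgeR's quasi-likelihood test, with the replicate number as a block and p-values adjusted over 52881 genes, called 0 of 9 members lower at 15 min at an adjusted p under 0.05, where 0.0359% of all genes tested (19 genes) were called lower. At an unadjusted p under 0.05 it was 4 of 9, namely BnaA06g21560D, BnaC01g28700D, BnaC07g23080D and BnaC08g36730D (2.03% of all genes tested), and DESeq2 called 0 of 9 (0.134% of all genes). At 60 min 8 of 9 were called higher than mock (15.2% of all genes), the exception being BnaA03g47200D. DESeq2 called 7 of 9 (14.5% of all genes), leaving out BnaC08g36730D as well. Between 15 and 60 min 9 of 9 were called higher by edgeR (14.2% of all genes) and by DESeq2 (13.7% of all genes). Since the rule selected on the same differences, the counts describe the members and test nothing.

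The fitted log2 changes at 15 min ranged from -0.75 (SE 0.18) in BnaA06g21560D to -0.16 (SE 0.09) in BnaC01g23230D. At 60 min they ranged from 0.20 (SE 0.06) in BnaC08g36730D, the member whose sign depended on the scaling, to 1.00 (SE 0.18) in BnaA06g21560D. Leaving out replicate 1 lowered the count of members called at 60 min from 8 to 4, with BnaA06g21560D, BnaC07g45320D, BnaC03g03760D and BnaC08g36730D no longer called. Over all genes tested, those called higher at 60 min fell from 8028 to 4220. Without the replicate block 0 of 9 members were called at 60 min and 1 of 9, BnaA06g21560D, between 15 and 60 min. Over all genes tested, 837 and 236 were then called higher in these comparisons.

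**Figure D2:**
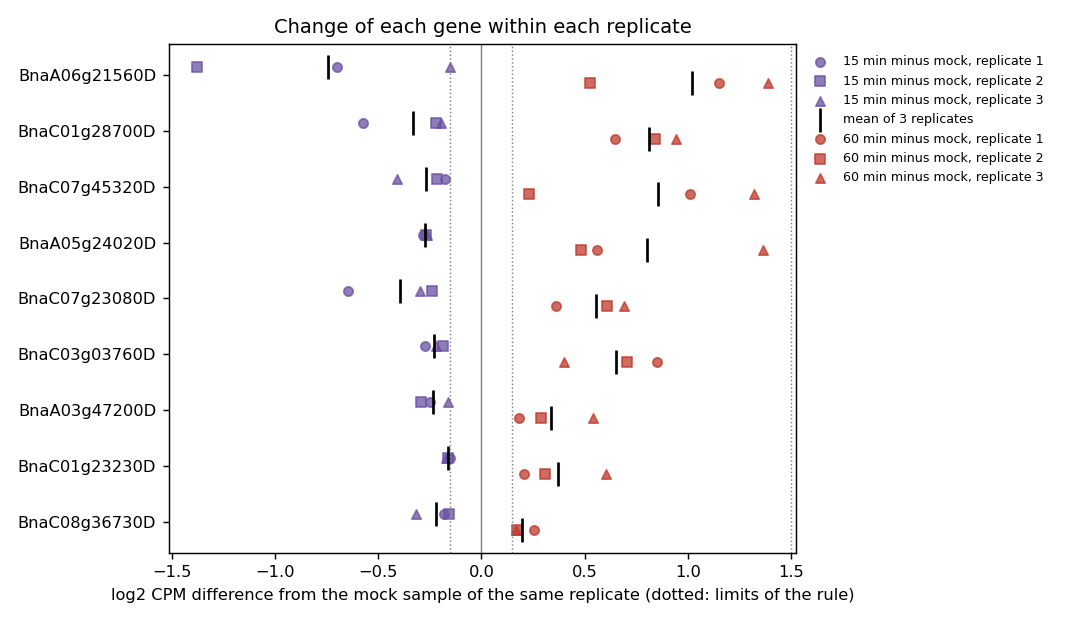
Difference in log2 CPM from the mock sample of the same replicate (horizontal axis) for each gene (rows), at 15 min (purple) and 60 min (red), with a symbol for each replicate, a black tick at the mean of 3 replicates and dotted lines at the limits of the rule. At 15 min 8 genes cluster between -0.64 and -0.15 and BnaA06g21560D reaches -1.38; at 60 min the values run from 0.17 in BnaC08g36730D, which is below 0 with scaling by total count alone, to 1.38 in BnaA06g21560D.

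Counting error was set beside these changes as a description, since the rule had already required each of them to be at least 0.15 away from 0. From the read counts of each sample and its mock, 95% exact binomial intervals of the ratio excluded 0 on the log2 scale in 20 of 27 cases at 15 min and in 26 of 27 at 60 min. They cover counting error only and leave out variation between samples from other sources. Duplicate reads from PCR are not independent molecules, so the intervals may be too narrow even for counting error. At 15 min the interval included 0 in all 3 replicates of BnaA03g47200D, for example from -0.59 to 0.0047 in replicate 2 with 166 reads against 217. It included 0 in 2 of 3 replicates of BnaC03g03760D and in 1 of 3 of BnaC01g28700D and BnaC07g23080D. The widest interval was that of BnaC03g03760D in replicate 2, from -0.57 to 0.19 with 106 reads against 129. For these genes the dip was not beyond counting error in every replicate.

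A replicate left out of the limits on r15 and r60 gives a further view of the pattern. The count minimums and the TMM factors still came from all 9 samples, so this replicate was not wholly apart from the choice. Choosing genes by the same limits on replicates 2 and 3 alone gave 35 genes, on 1 and 3 gave 52 and on 1 and 2 gave 70, and in each case the 9 members were those that also passed in the replicate left out. They made up 25.7%, 17.3% and 12.9% of the genes chosen. Of all genes with enough counts, 2.04%, 2.18% and 1.83% passed in that replicate alone. By definition the genes that pass are the 9 members each time, so the shares rest on the same genes, and both time points enter them.

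The sides of the pattern were then viewed apart. In the replicate left out, r60 was within its limits for 34 of 35, 35 of 52 and 52 of 70 genes (97.1%, 67.3% and 74.3%), where 31.4%, 31.2% and 33.5% of all genes were. The median r60 of the chosen genes there was 0.56, 0.28 and 0.60, against 0.02, 0.02 and 0.03 over all genes with enough counts.

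At 15 min, r15 in the replicate left out was below 0 for 19 of 35, 28 of 52 and 34 of 70 genes (54.3%, 53.9% and 48.6%), where 50.8%, 47.6% and 44.7% of all genes were. It was at or below -0.15 for 9, 15 and 12 of them (25.7%, 28.9% and 17.1%), against 12.8%, 14.4% and 14.2% of all genes. The median r15 of the chosen genes was -0.04, -0.05 and 0.01 in replicates 1, 2 and 3, against 0.00, 0.01 and 0.02 over all genes. The share below 0 and the median at 15 min were thus close to those of all genes.

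**Figure D3:**
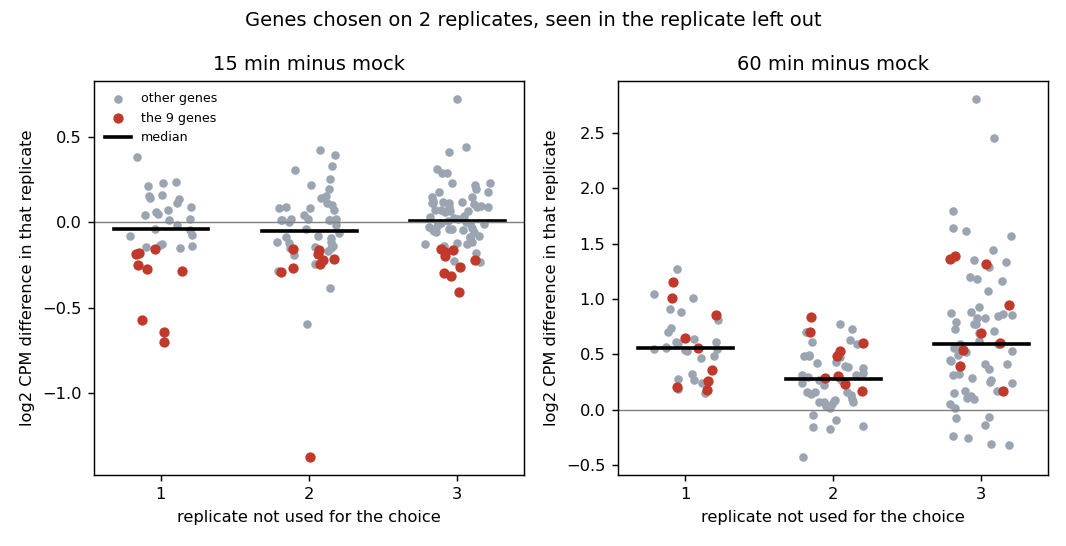
Genes chosen by the limits on 2 replicates, plotted by their log2 CPM difference from mock in the replicate not used (horizontal axis: its number), at 15 min (left) and 60 min (right), with black bars at the median and the 9 genes that meet the limits in all replicates in red. The medians at 15 min lie near 0 (-0.04, -0.05 and 0.01) and those at 60 min above it (0.56, 0.28 and 0.60).

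Several members sat close to a limit. The highest r15 was -0.15 both in BnaA06g21560D and in BnaC01g23230D, and just outside lay BnaC09g32750D and BnaA10g13260D, whose highest r15 was -0.149 and -0.148. The lowest r60 was 0.17 in BnaC08g36730D and 0.18 in BnaA03g47200D, while the nearest genes outside, BnaC09g48820D and BnaA08g18010D, had 0.10 and 0.09. The upper limit on r60 left out no gene, the highest values inside being 1.38 in BnaA06g21560D and 1.36 in BnaA05g24020D. The mean count was 213 in BnaA03g47200D and 269 in BnaC03g03760D, and of the 7 genes that missed only the minimum of 200, the nearest were BnaA02g16440D with 144 and BnaA06g17940D with 76.1. No gene missed only the minimum of 30 counts in mock, and the lowest mock counts inside were 129 in BnaC03g03760D and 177 in BnaA03g47200D.

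The rule looked only at differences within a replicate, so differences in level between the 3 pools could be tested. edgeR, with treatment as a term, called 6 of 9 members between the replicate numbers, where 71.1% of all genes tested and 83.2% of those with enough counts were called. The widest was BnaC01g28700D, whose mean level in replicate 3 was 8.73-fold that in replicate 2 (adjusted p = 1.36e-08, edgeR). BnaC03g03760D (2.63-fold, adjusted p = 1.87e-05) and BnaC07g23080D (2.19-fold, adjusted p = 1.27e-05) were highest in replicate 1 and lowest in replicate 2 by the same edgeR test.

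BnaC08g36730D differed in another order, 1.73-fold between replicate 2, the highest, and replicate 1 (edgeR adjusted p = 7.25e-06). BnaC07g45320D (1.68-fold, edgeR adjusted p = 0.0132) and BnaA05g24020D (1.504-fold, edgeR adjusted p = 0.0202) had their highest mean level in replicate 3. For BnaA05g24020D this rested on the 60-min sample (6.72 CPM). In mock and at 15 min its replicate 2 was highest, at 3.02 and 2.50 CPM. The members thus had no common order of the pools. BnaA06g21560D (1.05-fold, edgeR adjusted p = 0.899), BnaA03g47200D (1.04-fold, edgeR adjusted p = 0.868) and BnaC01g23230D (1.10-fold, edgeR adjusted p = 0.324) did not pass. DESeq2 also called 6 of 9 (67.7% of all genes). With the treatment term left out edgeR called 4 of 9 (28410 among all genes tested), no longer BnaC07g45320D and BnaA05g24020D. The median range between pools was 0.75 on the log2 scale for the members and 0.55 for the 31307 genes with enough counts, and in 4 of 9 members the pools differed by more than the mean difference between 15 and 60 min.

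**Figure D4:**
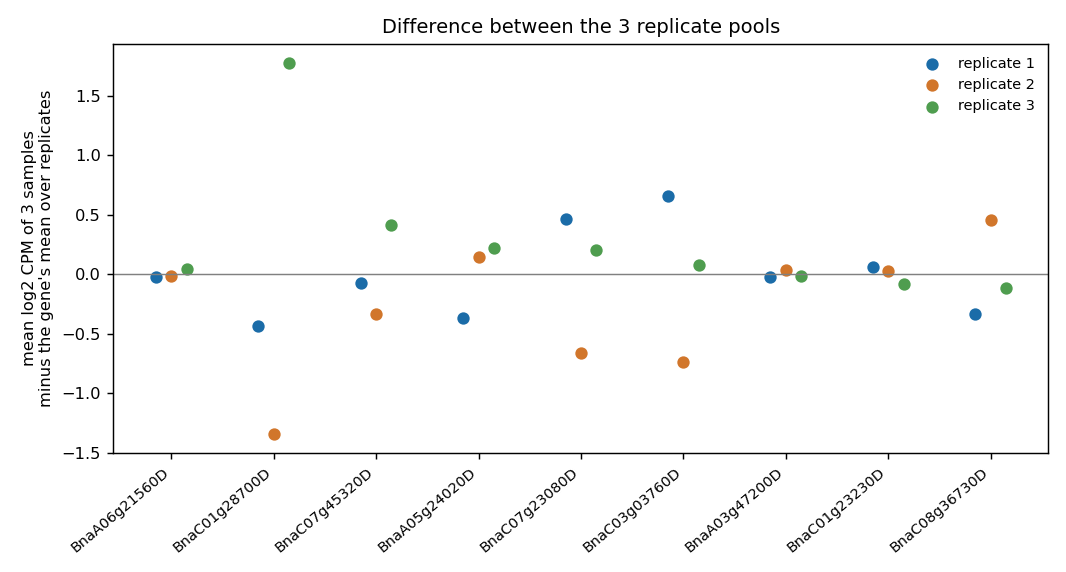
Mean log2 CPM of the 3 samples of each replicate number minus the gene's mean over replicates (vertical axis) for the 9 genes (horizontal axis), with a point for each replicate. BnaC01g28700D spans 3.13 on the log2 scale from replicate 2 to replicate 3, while BnaA06g21560D and BnaA03g47200D span 0.07 and 0.06.

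The summed level of guard cell markers differed between the pools too. The 7 guard cell marker genes, copies of the anion channel gene ALMT12, the kinase gene OST1 and the kinase gene MPK12, summed to 273, 227 and 838 CPM in mock replicates 1, 2 and 3, to 315, 243 and 1079 CPM at 15 min and to 1120, 639 and 2417 CPM at 60 min. Replicate 3 was highest in every group. The sums were carried by ALMT12 and MPK12, whose most abundant copy, ALMT12 gene BnaC07g34970D, had 74.3 to 307 CPM in mock, while the OST1 copies BnaA01g03110D and BnaC01g04370D had 2.23 to 2.62 and 3.06 to 3.91 CPM. All 7 were called higher at 60 min by edgeR, 0 of them at 15 min (0 at an unadjusted p under 0.05 and 0 by DESeq2), and they come from a table of the study chosen on these samples. BnaC03g59520D, a CAB1 gene for a chlorophyll-binding protein typical of mesophyll, had 19.8 to 43.0 CPM in mock and a log2 change of 0.47 at 60 min (SE 0.10, edgeR adjusted p = 0.0071). The part of cell composition in the members' values was not tested.

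To see whether the members sat in stretches of genes that moved together, the 2 identifiers on each side of each member were examined, 36 genes in all. Of these, 26 had enough counts for a test, none was itself a member, and 0 met the limit on r15 in all 3 replicates, whereas 3 met the limits on r60. edgeR called 0 of 26 at 15 min (4 at an unadjusted p under 0.05, 0 by DESeq2, and 0.431% of all genes by edgeR). At 60 min it called 5 higher and 2 lower, where 15.2% and 10.6% of all genes tested were called.

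The called neighbours lay beside 6 of the 9 members. BnaC07g45310D and BnaC07g45330D, on either side of BnaC07g45320D, rose by 0.59 (SE 0.07, adjusted p = 0.00016) and 0.25 (SE 0.07, adjusted p = 0.023) on the log2 scale at 60 min by edgeR. BnaC01g23240D, next to BnaC01g23230D, rose by 0.51 (SE 0.08, edgeR adjusted p = 0.0013). The others were BnaA05g24000D (2.10, SE 0.29, edgeR adjusted p = 0.00055) and BnaC03g03740D (0.35, SE 0.07, edgeR adjusted p = 0.0069). In the other direction BnaC08g36740D, next to BnaC08g36730D, fell by 1.42 (SE 0.21, edgeR adjusted p = 0.00075), and BnaA03g47220D fell by 0.20 (SE 0.06, edgeR adjusted p = 0.035, DESeq2 adjusted p = 0.08). The named neighbours were picked for being called. The strand setting of the counting is not given in the sources used here, so reads of overlapping genes could not be assigned with certainty.

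The study listed 86 genes of ABA signalling, taken from the literature and kept where they changed more than 2-fold in these samples, so their directions are not independent evidence. None was a member, where 0.0287% of genes with enough counts were, and as only 1 of the 9 members exceeded 2-fold at 60 min, little overlap could arise. By edgeR 12 of 86 were higher and 2 lower at 15 min, and 67 were higher and 19 lower at 60 min. Across all genes tested 0.395% were called higher and 0.0359% lower at 15 min, and 15.2% and 10.6% at 60 min. The median log2 change of the list was 0.28 at 15 min and 1.51 at 60 min, against 0.00 and -0.03 over all genes tested.

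In that list 9 genes met the limit on r15 in all 3 replicates, and all of these encode ABA receptors (PYL4, PYL5, PYL6 or PYR1) that were lower at 60 min as well. The 2 called lower at 15 min were PYL4 genes. BnaA03g17720D changed by -0.83 at 15 min (SE 0.12, edgeR adjusted p = 0.016) and by -1.42 at 60 min (SE 0.12, edgeR adjusted p = 2.6e-05). BnaC03g21240D changed by -1.08 (SE 0.16, edgeR adjusted p = 0.018) and by -1.94 (SE 0.16, edgeR adjusted p = 2.5e-05). They continued downwards where the 9 members turned. Another list held 46 genes of transcription factors that the study's tables name as regulators or tie to binding sites frequent in promoters of genes raised by ABA, many of them not known ABA signalling genes. Of these, 40 were tested and 0 were members (0.0287% of genes with enough counts). By edgeR 2 were called at 15 min, both higher (8 at an unadjusted p under 0.05 and 3 by DESeq2), and 23 were higher and 2 lower at 60 min.

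A related course was that of 7 genes the study listed, from these samples, as down-regulated at 15 min only. They include 2 copies of STZ, a zinc finger repressor of transcription in Arabidopsis, a MAPKKK14 kinase gene, the reticulon-like gene RTNLB3 and the metallothionein-like gene ATMT3. All 7 met the limit on r15, with a median log2 change of -0.55, and 0 of 7 met those on r60, so 0 were members. edgeR called 0 of 7 at 15 min over all genes (7 at an unadjusted p under 0.05, and 7 by DESeq2). Over all genes tested 0.0359% were called lower by edgeR, 2.03% at an unadjusted p under 0.05 and 0.134% by DESeq2. The study chose the 7 with DESeq2 at 15 min on these samples, so nothing is read from these counts.

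In 2 of them the level at 60 min was called above that at 15 min by edgeR, where 14.2% of all genes tested were. The study picked the list from these samples for a change at 15 min only. That choice favours such a difference, so these values are a description. The STZ gene BnaA09g27780D had r15 of -0.40, -0.20 and -0.74 and r60 of -0.15, 0.28 and 0.02, and its 60-min level was above its 15-min level by 0.49 on the log2 scale (SE 0.11, edgeR adjusted p = 0.0091). BnaC06g40000D had r15 of -0.28, -0.38 and -0.64 and r60 of -0.01, -0.01 and -0.34, with a difference of 0.31 between 60 and 15 min (SE 0.09, edgeR adjusted p = 0.03). The other 5 did not pass that test, and RTNLB3 (BnaA09g11950D) was still at -0.51 at 60 min (SE 0.23).

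How the libraries were scaled set the level of every value at 60 min. Total counts ranged from 88051359 to 123968001 per sample, and TMM factors from 0.812 to 0.938 at 60 min against 0.950 to 1.20 in mock. The median r60 over the 31307 genes with enough counts was 0.02 with TMM and -0.28 with scaling by total count alone. A change of scaling shifts all genes of a library by nearly the same amount. Measured from that median, the members' mean r60 therefore hardly moved by construction, for example 0.18 under either scaling in BnaC08g36730D and 1.00 in BnaA06g21560D. Nothing is read from that agreement.

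Measured from 0, BnaC08g36730D reversed to -0.04, -0.06 and -0.19 in replicates 1, 2 and 3, while BnaA03g47200D came to a mean of 0.04 and BnaC01g23230D to 0.08, each with replicate 1 below 0. The other 6 kept a mean r60 of 0.26 to 0.73, and r15 stayed below 0 in all 9. With that scaling the rule chose 8 genes, of which 3 were among the 9, namely BnaA06g21560D, BnaC01g28700D and BnaA05g24020D.

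**Figure D5:**
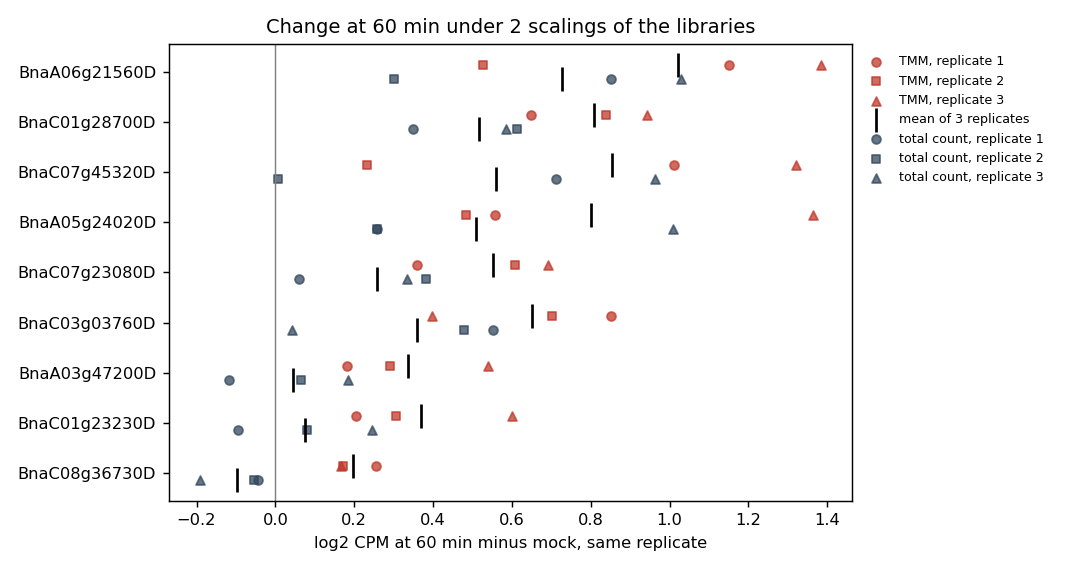
Difference in log2 CPM between 60 min and the mock sample of the same replicate (horizontal axis) for each gene (rows), with TMM scaling (red) and with scaling by total count alone (dark blue), a symbol for each replicate and black ticks at the means. Every gene shifts to the left by about the same amount, and BnaC08g36730D crosses 0, from a mean of 0.20 to -0.10.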

How the data were processed

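The authors mapped single-end reads of 100 bases with TopHat2 to the genome of the Darmor line and used HTSeq to count reads that fit 1 gene, without those that mapped to several places, so near-identical copies are uncertain. Versions, annotation release and strand setting are not given in the sources used here. The deposited table holds the resulting raw counts. From them, CPM and edgeR's quasi-likelihood test (edgeR 4.0.16, R 4.3.3) were computed after filterByExpr, which kept 52881 of 101040 genes, and TMM scaling, in a model of treatment and replicate number over all 9 samples. P-values were adjusted by Benjamini-Hochberg over all genes tested, with a threshold of 0.05, and SE is the absolute log2 change divided by the square root of F. DESeq2 1.42.0, the study's own tool, was the alternative test. The script was tested on simulated data.

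The replicate block follows the study's methods. Samples that share a number deviated together from the means of their groups (correlation 0.715 to 0.851 over genes, 9 pairs). Samples with different numbers did not (-0.588 to -0.156, 18 pairs). Deviations from a group mean cancel within the group, so these negative values follow from the positive ones and are no separate evidence. Total counts of 88051359 to 123968001 per sample set the counting error.

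All members are named. The rule, the members and the lists were chosen with earlier results of these data known. A last clause of the rule, on r15 below -0.3, removed nothing. Alternatives were RLE and total-count scaling, prior counts of 0.5 and 5, other limits and count filters, no replicate block, no treatment term in the test of pools, DESeq2 and leaving out each replicate number. Copies of members, product groups, promoters, and markers known only by product name were not analysed here, as none of the 9 identifiers matched the RefSeq table of assembly Da-Ae. Genes the study listed as transiently up-regulated (4 genes) had 0 members.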

Additional observations from a re-analysis of the deposited data

Results flagged for a closer look

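All 9 members of the rule were lower than mock at 15 min and higher at 60 min in every replicate, so the effects at the time points have opposite signs. This is how they were chosen, and the difference was not tested.

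Outside the members, the change from mock at 60 min differed from that at 15 min, by edgeR's test of the difference over all genes, for 2 of the 7 genes that the study listed as down-regulated at 15 min only. The difference was 0.4939 on the log2 scale for the STZ gene BnaA09g27780D and 0.3098 for BnaC06g40000D.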

How the results depend on the processing

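The rule gave 38 genes with both limits at 0.10, 2 with both at 0.20 (BnaA05g24020D and BnaC07g23080D), and 213 from group means with no replicate block. It gave 38 to 67 when a replicate was left out and scale factors were computed anew, and 8 to 13 under the other alternatives. With total-count scaling the median r15 of the members was -0.31 (-0.27 with TMM), the median r60 was 0.36 (0.65 with TMM), the mean r60 of BnaC08g36730D reversed to -0.0972, and 53.3%, 25.8% and 20.5% of genes chosen on 2 replicates passed in replicate 1, 2 or 3. Leaving out a replicate gave a median r15 from -0.28 to -0.24 and a median r60 from 0.51 to 0.65. Over the 9 members and 7 settings (RLE and total-count scaling, both prior counts, each replicate left out), 60 of 63 values of mean r15 and 57 of 63 of mean r60 moved by less than 1 SD between replicates. The 5 values of mean r60 that moved more and the 1 that reversed were all with total-count scaling. RLE scaling and the prior counts barely change a ratio, and leaving out a replicate keeps the others in the mean. Small moves were thus likely in advance in those settings. The cause was not tested for any of these.

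Calls over all genes at 15 min (228) became 584 with no filter, 490 with DESeq2, 5 with no replicate block and 5 to 278 when a replicate was left out, the lowest without replicate 1. At 60 min (13616) they became 27370 with total-count scaling, of which 15.2% were higher (59% with TMM), 895 with no replicate block and 5818 to 10811 with a replicate left out. Between 60 and 15 min (12516) they became 22807, of which 16.4% were higher (60.1% with TMM), 243, and 3637 to 10843. Calls between pools (37594) became 24074 to 28792 with a replicate left out.

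Of the ABA signalling genes 14 were called at 15 min, 29 with no filter, 0 with no replicate block and 0 to 19 with a replicate left out, and 47 of 86 at 60 min with no replicate block. Of the transcription factor genes 2 were called at 15 min, 4 with no filter, 0 with no replicate block and 0 to 2 with a replicate left out, and 10 in place of 25 at 60 min with no replicate block.

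Among the members, BnaA06g21560D was called lower at 15 min only with no filter and without replicate 3. Members called at 60 min numbered 6 with total-count scaling, 0 with no replicate block and 4 to 7 with a replicate left out, against 8. Over all genes tested, those called higher also fell, to 4148, 837 and 4220 to 6598 in these settings, against 8028. BnaA03g47200D and BnaC03g03760D had as few as 166 and 106 reads in a sample. Their counting intervals at 15 min excluded 0 in 0 of 3 and in 1 of 3 replicates. The part of depth in this was not tested.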
